A study of Saccharomyces cerevisiae with 12 samples.

Results

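The 34 genes described here belong to yeast gene families whose members resemble each other closely and mostly lie near chromosome ends or are known from growth without oxygen. They were chosen by name: every gene probe whose symbol matches TIR, DAN, PAU or COS followed by digits, or begins with YRF1-, which gave 34 of the 6388 gene probes on the array. The families were TIR with 4 members, DAN with 2, PAU with 16, COS with 10 and YRF1 with 2. The R64 gene table of budding yeast lists 50 genes with such names, and 16 of them carried no probe of that symbol here. Many copies of a family are near-identical, so a probe may also report its relatives. Where it does, the level of one copy cannot be told apart from that of another.

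Transcript levels were measured on 12 two-colour arrays in 6 groups of Saccharomyces cerevisiae, with 2 cultures from independent colonies in each group. The groups were Mot1-FRB (strain YGP200) with rapamycin and untreated, NCB2-FRB (strain YGP201) with rapamycin and untreated, and wild type (WT, strain HHY168) with rapamycin and untreated. All 3 strains grew in synthetic complete medium with glucose, and treated cultures received 1 µg/ml rapamycin for 60 min. Every array set 1 culture against the same RNA of untreated WT cells, and the letters a and b name the 2 cultures of a group as well as the dye each carried. In the anchor-away method rapamycin ties a protein that carries the FRB tag to an abundant protein that leaves the nucleus, so the tagged protein leaves with it. Mot1 is an ATPase that removes the TATA-binding protein from DNA. NCB2 encodes the beta subunit of NC2, which binds the TATA-binding protein on promoters and blocks assembly of the transcription machinery. The comparisons ask what rapamycin did in each strain, and whether that differed from its effect in WT, the strain without a tag.

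The TIR and DAN genes encode serine-rich mannoproteins of the cell wall, and the PAU genes encode seripauperins, related proteins named for their low serine content. All 3 families are known in budding yeast as genes kept low by oxygen and heme and raised in anaerobic or cold conditions. Mot3, Rox1 and the Tup1-Cyc8 corepressor hold many of them down, and Upc2 activates them when sterols run short. Most COS genes belong to the subtelomeric DUP380 family, whose membrane proteins help to sort other membrane proteins into the vacuole. COS111 shares the letters but not the family, and is known for resistance to an antifungal drug. YRF1 genes lie inside the Y' elements at chromosome tips and encode helicases that become abundant in cells that survive without telomerase.

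All 34 members had an entry in the R64 gene table, and 22 were among the outermost 10 listed protein-coding genes of a chromosome arm. These were 11 of 16 PAU genes, 9 of 10 COS genes and both YRF1 genes, while no TIR or DAN gene was among them. COS111 was the COS exception, with 99 listed genes between it and the nearer end of chromosome II. Some members were neighbours: PAU24 and COS2 on chromosome II, DAN1 and DAN4 on X, TIR4 and TIR2 on XV, and YRF1-7 and PAU22 on XVI had no listed gene between them. COS12 and PAU11 on chromosome VII had 1 listed gene between them. PAU23 and PAU24 are listed in the same table with the older names DAN2 and DAN3.

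Array quality bears on the WT comparisons most. The array of treated WT culture a was dim, with a median signal of 69.7 against 412 to 1231 on the other 11 arrays, and a signal over background of 1.61 against 8.25 to 21.6. Of the 34 members, 25 were above the blank spots on all 12 arrays, and the other 9 were below them on that array alone (TIR3, TIR4, DAN1, PAU8, PAU14, PAU24, COS5, COS6 and COS12). No member was saturated on any array. The transcript of a tagged gene does not show whether the protein left the nucleus. MOT1 was higher in untreated Mot1-FRB than in untreated WT by 0.67 on the log2 scale (limma adjusted p = 0.021), and with rapamycin it rose by 1.09 in Mot1-FRB, by 1.07 in NCB2-FRB and had a change of 0.00 in WT. NCB2 had changes of 0.78, 0.64 and -0.01 in the same order, the first 2 called. NCB2 was lower in untreated NCB2-FRB than in untreated WT, with a difference of -0.65 that was called with the dye letter as a block (limma adjusted p = 0.000273) and not without it.

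With rapamycin members of the families rose in both tagged strains, and no member passed the test in WT. Values below are log2 changes, treated minus untreated, with the standard error of a fit over all 12 arrays, and a gene was called where the adjusted p of limma (Benjamini-Hochberg over all 6388 probes) was under 0.05. In Mot1-FRB 8 of 34 members rose and 0 fell, where 22% of all probes rose and 15.3% fell (37.3% called). The share of members that rose was thus close to that of all probes, and the share called in either direction was below it. In NCB2-FRB 15 of 34 rose and 2 fell, where 22.8% of all probes rose and 18.2% fell (41% called). The median log2 change of the members was 0.35 in Mot1-FRB, 0.42 in NCB2-FRB and 0.13 in WT, against 0.01, -0.01 and 0.00 for all probes. In WT 0 of 34 members and 0% of all probes were called. At an unadjusted p under 0.05 limma also counted 0 members in WT, and 120 probes (1.88%).

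Arrays with the same letter deviated together from their group means, so a second fit held the letter as a block. With it 33.9% of all probes rose and 28.5% fell in Mot1-FRB (62.4% called), and 31.8% rose and 30.8% fell in NCB2-FRB (62.6% called). With the block, 28 members rose and 2 fell in Mot1-FRB, and 23 rose and 7 fell in NCB2-FRB, while WT again gave 0 members and 0% of all probes. At an unadjusted p under 0.05 the blocked limma fit counted 7 of 34 members in WT, a larger share than the 556 of all 6388 probes. On the authors' normalized values 22 members rose and 1 fell in Mot1-FRB (30.6% and 26.1% of all probes), and 20 rose and 5 fell in NCB2-FRB (29.5% and 28.3%). Where a single array was left out without the block, 4 to 15 members were called in Mot1-FRB. The count was 4 or 5 without any 1 of the Mot1-FRB arrays and 15 without either array of untreated NCB2-FRB. In NCB2-FRB the range was 4 to 22, with 6 without treated culture b and 4 without untreated culture a.

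**Figure D1:**
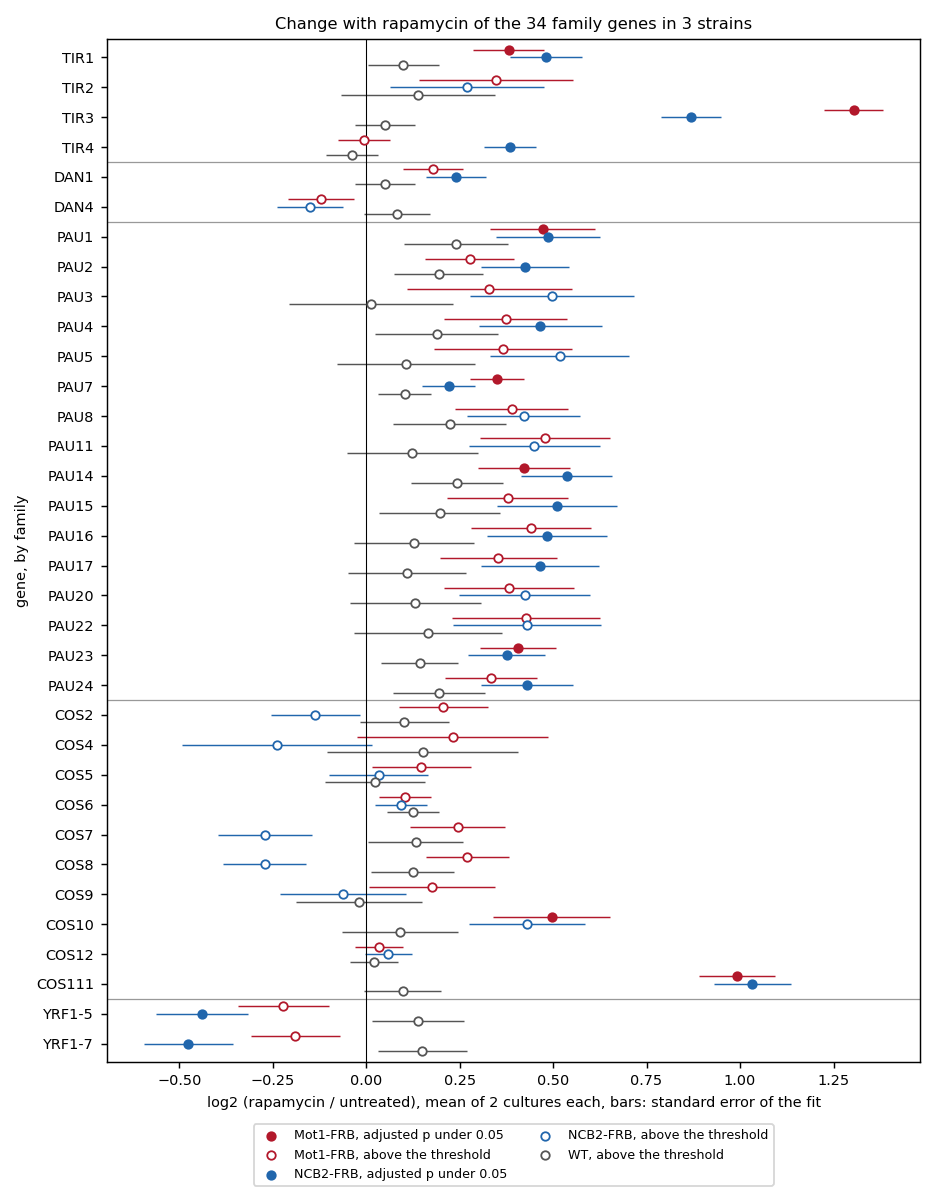
Change of each of the 34 family genes with rapamycin in Mot1-FRB (red), NCB2-FRB (blue) and WT (grey), as log2 of treated over untreated on the horizontal axis, with bars of 1 standard error. Filled points passed the test; TIR3 and COS111 lie farthest right in the tagged strains, the 16 PAU genes form a band from 0.22 to 0.54 there, and the YRF1 genes lie left of 0.

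TIR3 had the largest rise of the 34 genes in Mot1-FRB, and in NCB2-FRB it was second to COS111. Its product is a cell wall mannoprotein needed for growth without oxygen. Relative to the common reference, TIR3 had log2 ratios of 1.50 and 1.54 in Mot1-FRB cultures with rapamycin, against 0.15 and 0.29 in untreated Mot1-FRB cultures. In NCB2-FRB the ratios were 0.85 and 0.98 with rapamycin, against 0.01 and 0.08 untreated. In WT they were 0.02 and 0.13 with rapamycin, against -0.04 and 0.09 untreated. Treated and untreated cultures were far apart in both tagged strains, and in WT they overlapped. The rise was 1.30 ± 0.08 in Mot1-FRB (2.47-fold, limma adjusted p = 1.17e-05) and 0.87 ± 0.08 in NCB2-FRB (1.83-fold, limma adjusted p = 5.22e-05), against 0.05 ± 0.08 in WT.

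The rise of TIR3 exceeded that of WT in both strains, by 1.25 ± 0.11 in Mot1-FRB (limma adjusted p = 0.000293) and by 0.82 ± 0.11 in NCB2-FRB (limma adjusted p = 0.00129). Both differences stayed past the threshold without any single array. With median centring the differences were 1.33 and 0.88, and both missed the threshold. TIR3 was below the blank spots on the dim WT array. Without that array the difference of Mot1-FRB from WT was 1.20, and that of NCB2-FRB was 0.77. With the letter as a block and without that array they were 1.25 and 0.82. Between the tagged strains the rise was larger in Mot1-FRB by 0.43 ± 0.11, which missed the threshold in limma (adjusted p = 0.126) and passed it with the letter as a block (adjusted p = 0.00364).

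TIR4, another wall mannoprotein needed for anaerobic growth, gave a different pattern. It had ratios of 0.45 and 0.30 in NCB2-FRB with rapamycin, against 0.00 and -0.02 in untreated NCB2-FRB cultures. In Mot1-FRB it had 0.00 and -0.08 with rapamycin, against -0.02 and -0.05 untreated. Only the treated NCB2-FRB cultures stood above the rest: all 10 other arrays lay between -0.08 and 0.08. TIR4 rose by 0.38 ± 0.07 in NCB2-FRB (limma adjusted p = 0.00212), against -0.01 ± 0.07 in Mot1-FRB and -0.04 ± 0.07 in WT. The excess over WT in NCB2-FRB was 0.42 ± 0.10 (limma adjusted p = 0.0142), and it missed the threshold when untreated WT culture b was left out (0.36). The change in Mot1-FRB minus that in NCB2-FRB was -0.39 ± 0.10, with a limma adjusted p of 0.118 without the block and 0.0161 with it.

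TIR1 and TIR2 encode abundant wall mannoproteins known for their rise in cold and anaerobic cultures. TIR1 had ratios of 0.66 and 0.80 in treated Mot1-FRB cultures, against 0.30 and 0.40 untreated, and of 0.43 and 0.67 in treated NCB2-FRB cultures, against 0.10 and 0.03 untreated. In WT it had 0.10 and 0.21 with rapamycin, against -0.01 and 0.12 untreated. Treated cultures lay above untreated ones in both tagged strains, and those of WT overlapped. TIR1 rose by 0.38 ± 0.10 in Mot1-FRB (limma adjusted p = 0.0123) and by 0.48 ± 0.10 in NCB2-FRB (limma adjusted p = 0.00345), against 0.10 ± 0.10 in WT. The excess over WT, 0.28 ± 0.13 and 0.38 ± 0.13, missed the threshold without the block (adjusted p = 0.188 and 0.0728) and passed it with the block (adjusted p = 0.0322 and 0.00751). The rise in Mot1-FRB was lost without treated culture b (0.31) and without untreated culture a (0.33).

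TIR2 depended on how the arrays were normalized. It had ratios of 0.30 and 0.80 in treated Mot1-FRB cultures, against 0.07 and 0.34 untreated, so the cultures overlapped. In NCB2-FRB it had 0.15 and 0.66 with rapamycin, against 0.09 and 0.17 untreated. Its log2 changes of 0.35 ± 0.21 in Mot1-FRB and 0.27 ± 0.21 in NCB2-FRB were not called without the block and were called with it (adjusted p = 0.00941 and 0.0291). In the authors' normalized values the same changes were -0.02 and -0.25, and the second passed the test as a fall (limma adjusted p = 0.0419). No direction can be given for TIR2.

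DAN1 and DAN4 are adjacent genes of wall mannoproteins made in anaerobic cells. DAN1 had ratios of 0.29 and 0.38 in treated Mot1-FRB cultures, against 0.10 and 0.21 untreated, and of 0.20 and 0.34 in treated NCB2-FRB cultures, against -0.04 and 0.10 untreated. In WT it had -0.01 and 0.09 with rapamycin, against -0.05 and 0.02 untreated. The treated cultures of both tagged strains lay above the untreated ones. DAN1 rose by 0.24 ± 0.08 in NCB2-FRB (limma adjusted p = 0.0397) and its change in Mot1-FRB was 0.18 ± 0.08 (adjusted p = 0.113, with the block 0.00305). The call in NCB2-FRB was lost in 4 of 12 runs that left out 1 array: those without treated NCB2-FRB culture b (0.17), untreated NCB2-FRB culture a (0.17), or either untreated WT culture (0.24 each). Its difference from WT in NCB2-FRB, 0.19 ± 0.11, was called with the block alone (adjusted p = 0.278 without it, 0.0177 with it).

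DAN4 differed in sign from its neighbour. It had -0.33 and -0.15 in treated Mot1-FRB cultures, against -0.13 and -0.10 untreated, and -0.28 and -0.09 in treated NCB2-FRB cultures, against -0.09 and 0.02 untreated. Treated cultures were lower than untreated ones in both tagged strains by small margins. Its log2 changes of -0.12 ± 0.09 in Mot1-FRB and -0.15 ± 0.09 in NCB2-FRB, against 0.08 ± 0.09 in WT, were not called without the block, and with it the change in NCB2-FRB was (adjusted p = 0.0487).

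**Figure D2:**
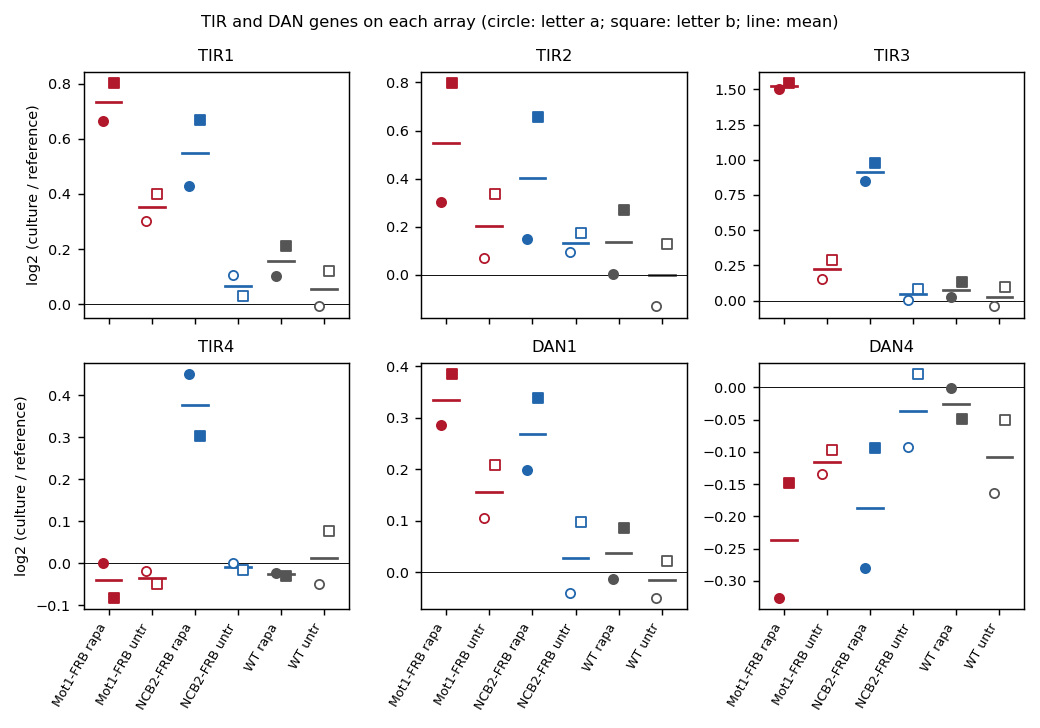
Log2 ratio of culture over common reference of the 4 TIR and 2 DAN genes on each of the 12 arrays, by group, with circles for letter a, squares for letter b, filled points for rapamycin and lines for group means. TIR3 is high in treated cultures of both tagged strains (0.85 to 1.54), TIR4 in treated NCB2-FRB cultures (0.30 and 0.45).

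The 16 PAU genes, which encode seripauperins and form the largest of these families, shifted together. On each array the median of the 16 was 0.05 and 0.14 in treated Mot1-FRB cultures, against -0.29 and -0.28 in untreated ones. In NCB2-FRB it was 0.14 and 0.29 with rapamycin, against -0.48 and -0.02 untreated. In WT it was -0.17 and -0.16 with rapamycin, against -0.53 and -0.14 untreated. Treated cultures were above untreated ones in both tagged strains, and the treated WT cultures lay inside the range of the untreated ones. For all 16 genes both treated cultures exceeded both untreated cultures in Mot1-FRB, where 35.8% of all probes did so, and in NCB2-FRB, where 33.6% did. In WT this held for 4 of the 16, against 12.2% of all probes.

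The log2 changes of the 16 PAU genes spanned 0.28 to 0.48 in Mot1-FRB (median 0.38), 0.22 to 0.54 in NCB2-FRB (median 0.46) and 0.01 to 0.24 in WT (median 0.15). In the tagged strains all 16 were above 0 under each of 6 normalizations (the one used throughout, no background subtraction, print-tip loess, median centring, centring on external control spots, and the authors' values), and in WT 13 were. The spread between genes was narrow, with an SD over the 16 of 0.05 in Mot1-FRB and 0.07 in NCB2-FRB, where the SD over all probes was 0.40 and 0.43. The 16 values are not independent, since copies may share signal. Singly, 4 of 16 rose in Mot1-FRB, close to the 22% of all probes, and 10 of 16 in NCB2-FRB, above the 22.8% of all probes. The counts depended on the setting. With the block all 16 rose in each tagged strain, where 33.9% of all probes rose in Mot1-FRB and 31.8% in NCB2-FRB. With median centring 0 of 16 rose in either, and with centring on external control spots 1 rose in Mot1-FRB and 2 in NCB2-FRB. The shares of all probes under these centrings are not given here.

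PAU7, which lies outside the outermost 10 genes, had the smallest standard error of the 16 PAU genes. It had ratios of 0.24 and 0.37 in treated Mot1-FRB cultures, against -0.09 and -0.01 untreated, and of 0.10 and 0.22 in treated NCB2-FRB cultures, against -0.08 and -0.05 untreated. It rose by 0.35 ± 0.07 in Mot1-FRB (limma adjusted p = 0.00446) and by 0.22 ± 0.07 in NCB2-FRB (limma adjusted p = 0.0336), against 0.10 ± 0.07 in WT. Its change was larger in Mot1-FRB than in NCB2-FRB by 0.13 ± 0.10, which was not called. PAU14 had the largest change in NCB2-FRB, 0.54 ± 0.12 (limma adjusted p = 0.00721), and PAU11 the largest in Mot1-FRB, 0.48 ± 0.17 (adjusted p = 0.0585). PAU1 rose by 0.47 ± 0.14 and 0.49 ± 0.14 in Mot1-FRB and NCB2-FRB (limma adjusted p = 0.026 and 0.0211), against 0.24 ± 0.14 in WT. PAU23, the former DAN2, rose by 0.41 ± 0.10 and 0.38 ± 0.10 (limma adjusted p = 0.0129 and 0.0166), against 0.14 ± 0.10 in WT. The WT values were smaller for both genes, and without the block neither difference from WT was called.

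No PAU gene was called different from WT without the block. All 16 differences from WT were above 0, from 0.08 to 0.35 in Mot1-FRB and from 0.12 to 0.48 in NCB2-FRB, at standard errors of 0.10 to 0.31. With the block 2 passed in Mot1-FRB (PAU7 and PAU23) and 3 in NCB2-FRB (PAU3, PAU17 and PAU23). These were fewer in share than the 25.5% of all probes above WT in each strain, and both counts rest in part on the dim WT array. Without the dim WT array the medians of the differences were 0.22 and 0.27, against 0.25 and 0.29 with all arrays. That fit set treated WT culture b alone against both untreated WT cultures, which carried different dyes. With the letter as a block and without the dim array the medians were 0.31 and 0.36. Some normalizations turned the sign of PAU2 in Mot1-FRB and of PAU7, PAU8 and PAU23 in NCB2-FRB.

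Culture b minus culture a of the same group gave a median PAU gap of 0.44 in untreated NCB2-FRB and 0.36 in untreated WT, against 0.01 in untreated Mot1-FRB. With rapamycin the gap was 0.08 in Mot1-FRB, 0.17 in NCB2-FRB and 0.00 in WT. The gap differed between groups, and its part in the changes was not tested. Within letter a the median PAU change was 0.35 in Mot1-FRB, 0.61 in NCB2-FRB and 0.29 in WT. Within letter b it was 0.42 in Mot1-FRB, 0.34 in NCB2-FRB and 0.03 in WT. The WT change within letter a and the treated WT gap rest on the dim array. PAU8, PAU14 and PAU24 were below the blank spots on that array. Without it the median PAU change in WT was 0.19, and 0.08 with the letter as a block. In both letters all 16 changes were above 0 in each tagged strain, and in WT 16 were in letter a and 10 in letter b.

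By position, the 11 PAU genes among the outermost 10 genes of an arm had a median change of 0.39 in Mot1-FRB and 0.47 in NCB2-FRB, against 0.35 and 0.42 for the other 5 (PAU2, PAU5, PAU7, PAU17 and PAU23). All but 1 of the 32 values of PAU genes in untreated Mot1-FRB and all 32 in untreated WT lay below the common reference, which is itself RNA of untreated WT cells.

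**Figure D3:**
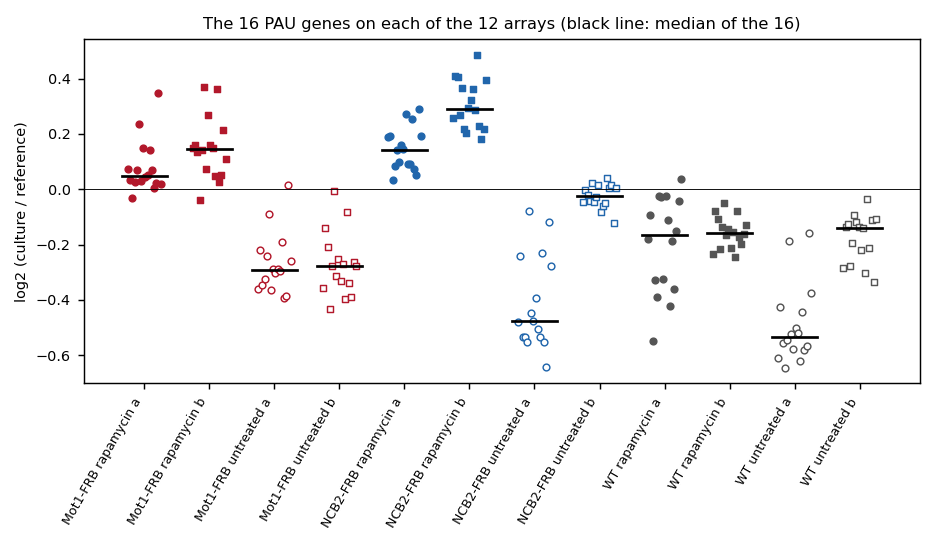
Log2 ratio of culture over common reference of the 16 PAU genes on each of the 12 arrays, with filled points for rapamycin and black lines for the median of the 16. The medians are 0.05 to 0.29 in the 4 treated tagged cultures and -0.53 to -0.02 in the other 8.

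Among the genes named COS, COS111 rose most. It had ratios of 1.18 and 1.38 in treated Mot1-FRB cultures, against 0.17 and 0.40 untreated, and of 1.07 and 1.06 in treated NCB2-FRB cultures, against -0.01 and 0.07 untreated. In WT it had 0.08 and -0.11 with rapamycin, against -0.17 and -0.06 untreated. The treated tagged cultures were all above 1 and every other culture below 0.5. COS111 rose by 0.99 ± 0.10 in Mot1-FRB (limma adjusted p = 0.000123) and by 1.03 ± 0.10 in NCB2-FRB (limma adjusted p = 7.73e-05), against 0.10 ± 0.10 in WT. The excess over WT was 0.90 ± 0.14 in Mot1-FRB and 0.94 ± 0.14 in NCB2-FRB (limma adjusted p = 0.00354 and 0.00231). None of the 4 calls was lost by leaving out 1 array. With median centring the excess was 0.79 and 0.81, and it missed the threshold in both strains.

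Of the 9 DUP380 genes COS10 alone was called without the block, in Mot1-FRB. It had ratios of 0.34 and 0.12 in treated Mot1-FRB cultures, against -0.16 and -0.37 untreated, and of 0.46 and 0.26 in treated NCB2-FRB cultures, against -0.31 and 0.17 untreated. It rose by 0.50 ± 0.16 in Mot1-FRB (limma adjusted p = 0.0337), and its change was 0.43 ± 0.16 in NCB2-FRB (adjusted p = 0.0534, with the block 0.0327) and 0.09 ± 0.16 in WT. The call in Mot1-FRB was lost in 5 of 12 runs without 1 array: treated Mot1-FRB culture a (0.38), untreated Mot1-FRB culture a (0.60) or b (0.39), or either treated WT culture (0.50 each). COS12, the least changed of the family in Mot1-FRB, had log2 changes of 0.03 ± 0.06, 0.06 ± 0.06 and 0.02 ± 0.06 in Mot1-FRB, NCB2-FRB and WT.

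COS2, COS4, COS7 and COS8 had changes of opposite sign in the tagged strains. COS8 is named by the rule for named genes, and the other 3 were picked out after their values were seen. The changes of COS9, 0.18 in Mot1-FRB and -0.06 in NCB2-FRB, were also of opposite sign. Related copies may share signal, so these values may not be independent. COS8 had ratios of 0.07 and 0.01 in treated Mot1-FRB cultures, against -0.23 and -0.23 untreated, and of -0.37 and -0.66 in treated NCB2-FRB cultures, against -0.19 and -0.30 untreated. In WT it had -0.13 and -0.26 with rapamycin, against -0.19 and -0.45 untreated. Treated Mot1-FRB cultures were above their untreated pair and treated NCB2-FRB cultures below theirs, and the WT cultures overlapped. The change of COS8 was 0.27 ± 0.11 in Mot1-FRB (adjusted p = 0.0843), -0.27 ± 0.11 in NCB2-FRB (adjusted p = 0.0789) and 0.12 ± 0.11 in WT.

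The other 3 had like values, none called without the block. COS7 had changes of 0.24 ± 0.13 in Mot1-FRB and -0.27 ± 0.13 in NCB2-FRB, COS4 of 0.23 ± 0.26 and -0.24 ± 0.26, and COS2 of 0.21 ± 0.12 and -0.14 ± 0.12. COS4 had the ratios 0.26 and -0.20 in treated Mot1-FRB, against 0.05 and -0.46 untreated, and -0.28 and -0.68 in treated NCB2-FRB, against -0.04 and -0.45 untreated. Culture a exceeded culture b in every group, while within letters a and b the Mot1-FRB change was 0.21 and 0.25, and the NCB2-FRB change -0.25 and -0.23.

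The change in Mot1-FRB minus that in NCB2-FRB was 0.54 ± 0.16 for COS8, 0.51 ± 0.18 for COS7, 0.47 ± 0.36 for COS4 and 0.34 ± 0.17 for COS2. None was called without the block (adjusted p = 0.16, 0.226, 0.679 and 0.417), and all 4 were with it (adjusted p = 0.00907, 0.00415, 0.00378 and 0.0162). With the block each of the 4 also rose in Mot1-FRB and fell in NCB2-FRB. In the authors' normalized values COS4 and COS8 had NCB2-FRB changes of 0.05 and -0.03, not called, and COS7 and COS2 had -0.12 and -0.18, called in limma. The difference between the strains kept its sign in all 6 normalizations for the 4 genes, and in the authors' values COS7 and COS8 passed (0.32 and 0.33, limma adjusted p = 0.0189 and 0.0462).

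COS5, COS6 and COS9 complete the family. COS5 and COS6 had changes of 0.15 ± 0.13 and 0.10 ± 0.07 in Mot1-FRB and of 0.03 ± 0.13 and 0.09 ± 0.07 in NCB2-FRB, against 0.02 ± 0.13 and 0.13 ± 0.07 in WT. COS9 had changes of 0.18 ± 0.17 in Mot1-FRB, -0.06 ± 0.17 in NCB2-FRB and -0.02 ± 0.17 in WT. With the block COS9 and COS5 were called up in Mot1-FRB, and COS6 was called in no strain.

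YRF1-5 and YRF1-7 were the members that fell. YRF1-5 had ratios of -0.60 and -0.82 in treated NCB2-FRB cultures, against -0.18 and -0.35 untreated, and of -0.52 and -0.79 in treated Mot1-FRB cultures, against -0.35 and -0.52 untreated. In WT it had -0.16 and -0.33 with rapamycin, against -0.31 and -0.45 untreated. YRF1-7 had -0.54 and -0.86 in treated NCB2-FRB cultures, against -0.17 and -0.28 untreated, and -0.50 and -0.68 in treated Mot1-FRB cultures, against -0.29 and -0.50 untreated. YRF1-7 had -0.20 and -0.23 in WT with rapamycin, against -0.30 and -0.43 untreated. Both treated NCB2-FRB cultures were below both untreated ones for each gene, treated and untreated Mot1-FRB cultures met near the same value, and the WT cultures overlapped for YRF1-5 but not for YRF1-7.

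YRF1-5 fell by 0.44 on the log2 scale in NCB2-FRB (standard error 0.12, limma adjusted p = 0.0188) and YRF1-7 by 0.48 (standard error 0.12, limma adjusted p = 0.0112). In Mot1-FRB the changes were -0.22 ± 0.12 and -0.19 ± 0.12, called with the block alone (adjusted p = 0.00185 and 0.0258). In WT they were 0.14 ± 0.12 and 0.15 ± 0.12. The change in NCB2-FRB was below that in WT by -0.58 ± 0.17 for YRF1-5 and -0.62 ± 0.17 for YRF1-7 (limma adjusted p = 0.0409 and 0.0264). With the block the change in Mot1-FRB was also below that in WT, by -0.36 and -0.34 (adjusted p = 0.00158 and 0.013).

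The fall in NCB2-FRB was lost for both genes without treated culture b (-0.33 and -0.31) and without untreated culture a (-0.35 and -0.42). The differences from WT were lost in 9 of 12 runs without 1 array for YRF1-5 (values from -0.69 to -0.46) and in 6 of 12 for YRF1-7 (-0.79 to -0.46). For both genes these runs included those without treated NCB2-FRB culture b, either untreated NCB2-FRB culture, either treated WT culture or untreated WT culture b; for YRF1-5 also those without either untreated Mot1-FRB culture or untreated WT culture a. All these runs were fitted without the block, so each left the dyes of 1 group unbalanced. With the block and without the dim WT array the differences from WT in NCB2-FRB were -0.59 for YRF1-5 and -0.70 for YRF1-7. The sign of the change in WT turned for both genes with median centring alone. The signs in the tagged strains and of both differences from WT held in all 6 normalizations.

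**Figure D4:**
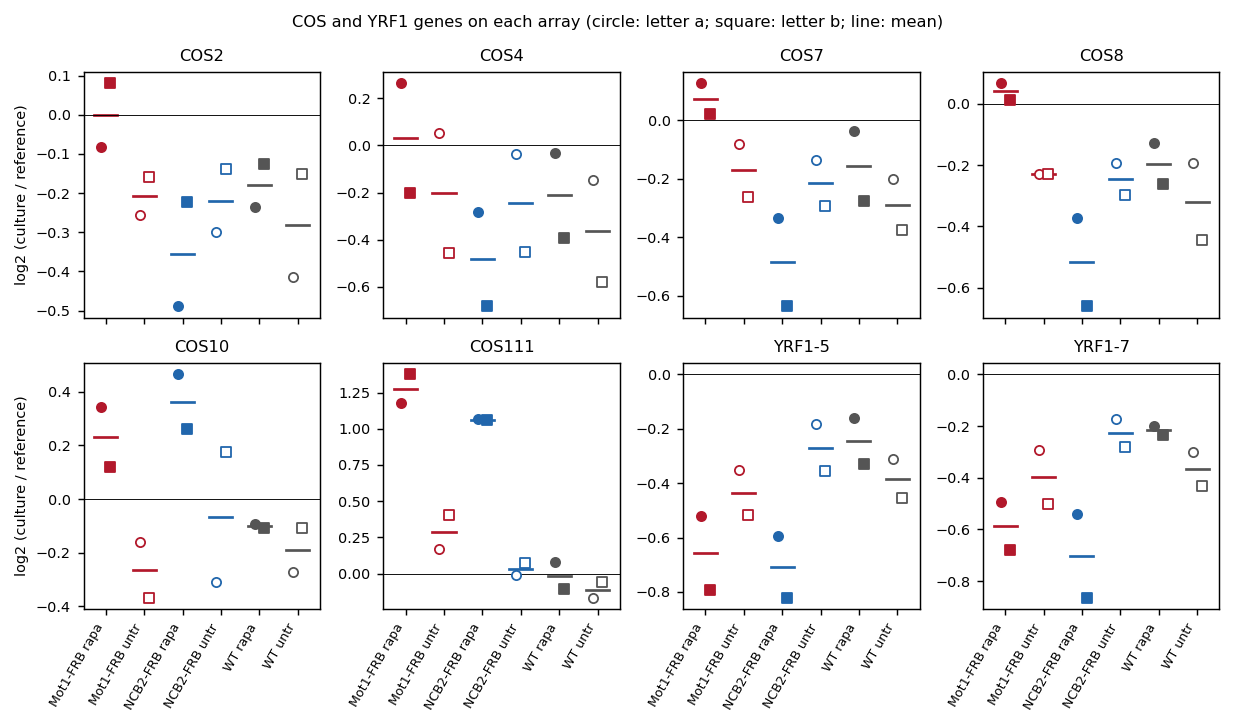
Log2 ratio of culture over common reference of 6 COS and 2 YRF1 genes on each of the 12 arrays, with circles for letter a, squares for letter b, filled points for rapamycin and lines for group means. COS111 exceeds 1 in the 4 treated tagged cultures. COS8 is above 0 in treated Mot1-FRB cultures and at -0.37 and -0.66 in treated NCB2-FRB cultures. The YRF1 genes have their lowest group means in treated NCB2-FRB, where the points overlap those of treated Mot1-FRB.

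Set directly against WT, few members stood apart. In Mot1-FRB 2 of 34 members exceeded the WT change (TIR3 and COS111) and 0 were below it, where 12.7% of all probes were above and 6.7% below (19.4% called). In NCB2-FRB 3 exceeded it (TIR3, TIR4 and COS111) and 2 were below (YRF1-5 and YRF1-7), where 14.5% of all probes were above and 8.95% below (23.5% called). Each of these shares of members is under that of all probes. With the block 6 were above and 2 below in Mot1-FRB (25.5% and 19.3% of all probes, 44.7% called), and 8 above and 7 below in NCB2-FRB (25.5% and 22.9%, 48.4% called). The comparisons share the WT arrays. When 1 array was left out, the count in NCB2-FRB was 2 to 7, with 2 without untreated WT culture b and 3 without treated NCB2-FRB culture b, either untreated NCB2-FRB culture or either treated WT culture.

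Between the 2 tagged strains 0 of 34 members differed in limma, where 0.219% of all probes were higher in Mot1-FRB and 0.282% lower. At an unadjusted p under 0.05 limma counted 4 of 34 members, a smaller share than the 14% of all probes. With the block 7 members were higher in Mot1-FRB (TIR3, COS2, COS4, COS7, COS8, COS9 and YRF1-5) and TIR4 was lower, where 8.56% and 7.81% of all probes were. The members higher in Mot1-FRB were 5 COS genes, 1 TIR gene and 1 YRF1 gene, and no PAU gene was among them.

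**Figure D5:**
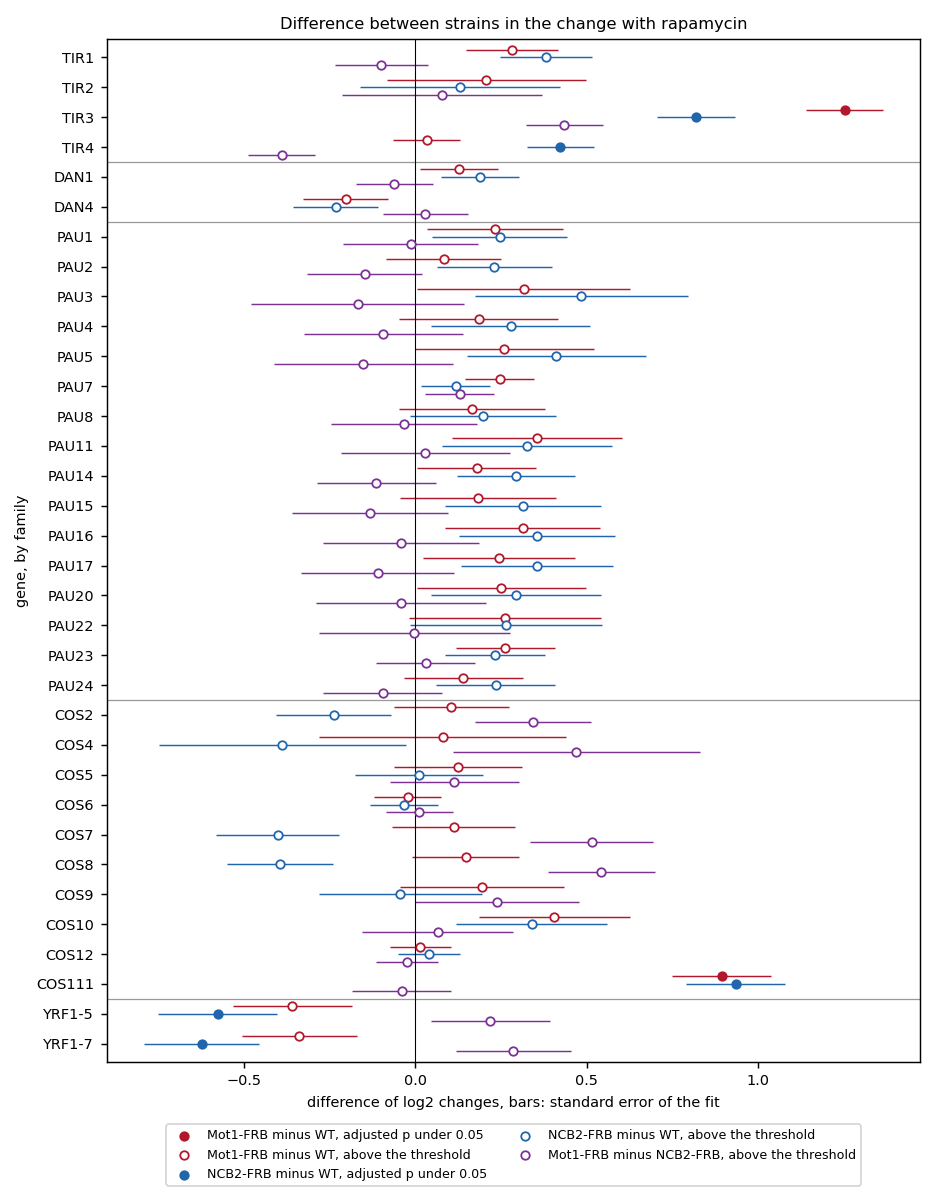
Difference between strains in the log2 change with rapamycin of the 34 genes, with bars of 1 standard error and filled points past the threshold. TIR3 and COS111 are right of 0 against WT in both tagged strains (0.82 to 1.25), TIR4 and the YRF1 genes differ from WT in NCB2-FRB, and COS2, COS4, COS7 and COS8 (purple) lie right of 0 between the tagged strains.

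Without rapamycin Mot1-FRB differed from WT at 4 members in the fit with the block. COS111 was higher by 0.40 ± 0.10 and TIR1 by 0.29 ± 0.10, TIR3 by 0.19 ± 0.08 and DAN1 by 0.17 ± 0.08. In limma 0 of 34 members were called, where 0.861% of all probes were higher and 0.11% lower (0.971% called). At an unadjusted p under 0.05 limma counted 3 of 34 members and 9.92% of all probes. With the block these 4 genes were called (adjusted p = 0.0302, 0.0301, 0.0273 and 0.0325), where 5.03% of all probes were higher and 1.99% lower (7.01% called). In untreated NCB2-FRB against untreated WT 0 of 34 members were called (0.0157% of all probes higher, 0% lower), 0 at an unadjusted p under 0.05, and 0 with the block (0.0313% of all probes), which had 3 at an unadjusted p under 0.05.

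Regulators known to act on the anaerobic members were measured alongside. Of 10 such genes 1 rose and 1 fell in Mot1-FRB (22% and 15.3% of all probes), 3 rose and 1 fell in NCB2-FRB (22.8% and 18.2% of all probes), and 0 were called in WT (0% of all probes). HAP1, the heme-responsive activator of respiratory genes, rose by 0.89 ± 0.08 in Mot1-FRB and 1.21 ± 0.08 in NCB2-FRB (limma adjusted p = 5.07e-05 and 1.09e-05). ECM22, a sterol regulator related to Upc2, fell by 0.44 and 0.55 (standard error 0.09 each). MOT3, a repressor of DAN and TIR genes, rose by 0.68 ± 0.07 in NCB2-FRB, against a change of 0.02 ± 0.07 in Mot1-FRB, and CYC8 rose by 0.38 ± 0.07 in NCB2-FRB. UPC2 had changes of -0.06 ± 0.09 and -0.15 ± 0.09, ROX1 of 0.10 ± 0.17 and 0.27 ± 0.17, and TUP1 of 0.06 ± 0.07 and 0.02 ± 0.07, none of them called without the block. With it UPC2 was called down and ROX1 up in NCB2-FRB.

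Of 16 other genes known from anaerobic or sterol-poor growth, 8 rose and 0 fell in Mot1-FRB, where 22% of all probes rose and 15.3% fell. In NCB2-FRB 9 rose and 1 fell, where 22.8% of all probes rose and 18.2% fell. The list had medians of 0.34 and 0.45. CYC7, the second cytochrome c, rose by 1.71 ± 0.16 and 1.88 ± 0.16, and COX5B, the low-oxygen form of a cytochrome oxidase subunit, by 1.35 ± 0.11 and 1.47 ± 0.11. HEM13, of heme synthesis, rose by 1.11 ± 0.06 in Mot1-FRB, against a change of 0.00 ± 0.06 in NCB2-FRB. ANB1, a translation factor gene repressed by oxygen, had changes of -0.09 ± 0.15 and 0.15 ± 0.15 and was not called. AUS1, a sterol importer, rose by 0.28 ± 0.09 in Mot1-FRB and fell by 0.48 in NCB2-FRB (standard error 0.09).

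Of 12 wall protein genes of aerobic growth, 6 rose and 0 fell in Mot1-FRB (22% and 15.3% of all probes) and 5 rose and 1 fell in NCB2-FRB (22.8% and 18.2% of all probes), with medians of 0.41 and 0.35. SPI1 and YGP1, which rise in stationary phase, increased by 1.61 ± 0.17 and 1.39 ± 0.17 in Mot1-FRB and by 1.13 ± 0.17 and 1.28 ± 0.17 in NCB2-FRB. TIP1, a wall mannoprotein of the same kin as the TIR genes that is made in air, fell by 1.27 in NCB2-FRB (standard error 0.21, limma adjusted p = 0.00118) and had a change of -0.49 ± 0.21 in Mot1-FRB. In WT 0 genes of either list were called.

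Other genes near chromosome ends had medians close to 0. The other 199 probes among the outermost 10 genes of an arm had median changes of -0.02 in Mot1-FRB, -0.01 in NCB2-FRB and 0.03 in WT. Of these 199, 40 rose and 20 fell in Mot1-FRB and 46 rose and 28 fell in NCB2-FRB. The risen shares were near those of all probes (22% in the first strain, 22.8% in the second). The fallen shares were below those of all probes (15.3% and 18.2%). The 22 members among the outermost genes had medians of 0.33, 0.42 and 0.13, with 3 risen and 0 fallen in Mot1-FRB and 6 risen and 2 fallen in NCB2-FRB. With the outermost 5 genes of each arm the medians of the other 72 probes were -0.01 and -0.03.

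Genes of silencing and telomere upkeep, which act on chromosome ends, changed in both directions. Of 24, 4 rose and 5 fell in Mot1-FRB (22% and 15.3% of all probes), and 2 rose and 7 fell in NCB2-FRB (22.8% and 18.2% of all probes). HDA2, of a histone deacetylase complex, rose by 0.77 ± 0.16 and 0.50 ± 0.16, and SIR3, a silencing protein of telomeres, by 0.32 ± 0.07 in Mot1-FRB. EST3, a telomerase subunit, fell by 0.34 and 0.60 (standard error 0.07 each), and YKU80, of the Ku complex at telomeres, by 0.32 and 0.38 (standard error 0.08 each). Of the 5 DUP240 genes, kin of the COS genes, MST27, MST28 and PRM9 fell in both strains, with falls of 0.29 to 0.31 on the log2 scale for Mot1-FRB, 0.38 to 0.41 for NCB2-FRB, and PRM8 rose by 0.56 ± 0.12 in Mot1-FRB.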

How the data were processed

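The deposited scanner files give the raw intensity and background of each spot in both dyes, as their headers show. The authors' own normalized intensities came from print-tip LOESS without background subtraction and a dye-bias correction, per the labels' protocols. The authors' deposited value table holds log2 ratios of culture over reference made from those intensities, and served as an alternative.

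From the scanner intensities, background was corrected by normexp (offset 50), ratios were normalized by global loess (span 0.3, 4 iterations), turned to culture over reference, and the 2 spots of a probe averaged. R 4.3.3 with limma 3.58.1 fitted 6 group means over 12 arrays (6 residual and 3.00 prior degrees of freedom), two-sided, with p-values adjusted over 6388 probes of each of 8 comparisons and no filter on dim probes. On simulated data for these 6388 probes the fit recovered 81 of 100 probes changed 1.5-fold and 93 of 100 changed 2-fold, with 7 false calls. The simulated noise was independent between arrays and only these probes changed, so these counts need not hold for the measured arrays.

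Letters a and b are dye orientations, per the labels. Deviations of same-letter arrays correlated at 0.48 to 0.82 across probes in 15 pairs of groups, so the letters pair the arrays and blocked values stand beside results they change. The 12 runs that left out 1 array each were fitted without the block, so the dyes of 1 group were unbalanced in each.

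The members and the other gene lists were chosen with earlier results of these data known. Named were every TIR and DAN gene, in the other families up to 4 called members with the largest change per tagged strain and those with the largest and smallest change, and up to 4 called genes per list and any regulator. Genes outside this rule are given as parts of ranges or to complete a family. Gene order came from the R64 table (5288 of 5326 probes with a symbol matched); the files name no genome build. Sequences were not used here. Figures were drawn with matplotlib 3.10.9 in Python 3.11.15.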

Additional observations from a re-analysis of the deposited data

Results flagged for a closer look

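Strain differences in the response to rapamycin, tested as an interaction in limma, were past the threshold for 5 genes. The change of TIR3 in Mot1-FRB exceeded that in WT by 1.25, and that in NCB2-FRB exceeded it by 0.82. COS111 exceeded the WT change by 0.90 in Mot1-FRB and by 0.94 in NCB2-FRB. TIR4 exceeded it by 0.42 in NCB2-FRB. The differences of NCB2-FRB from WT were -0.58 for YRF1-5 and -0.62 for YRF1-7. With median centring none of these differences passed the threshold. In all 7 cases both tagged cultures with rapamycin lay beyond both untreated cultures of the same strain. The cases were selected by a test on the same values, so this separation is no separate check of them. It was also common among all probes. For Mot1-FRB 35.8% of them had such a separation upward and 31.5% downward. The shares for NCB2-FRB were 33.6% upward and 33.1% downward. The comparisons with WT share the dim array of treated WT culture a, and without it the YRF1 differences were -0.49 and -0.61, neither called without the block (limma adjusted p = 0.133 and 0.0783) and both called with it.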

How the results depend on the processing

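Counts are of the 34 members called by limma. The share of all probes called moved too. In Mot1-FRB it was 37.3%, 62.4% with the block and 56.7% on the authors' values. In NCB2-FRB it was 41%, 62.6% and 57.8%. For Mot1-FRB minus WT it was 19.4%, 44.7% and 38.9%, and for NCB2-FRB minus WT 23.5%, 48.4% and 42.3%. For Mot1-FRB minus NCB2-FRB it was 0.501%, 16.4% and 8.48%. For untreated Mot1-FRB against WT it was 0.971%, 7.01% and 4.21%. Shares under the other settings are not given here. For rapamycin in Mot1-FRB, 8 became 30 with the letter as a replicate block, 15 with print-tip loess, 2 with median centring, 3 with centring on external control spots, 23 on the authors' values, 25 on those with the block, and 30 with the block without the dim array. In NCB2-FRB, 17 became 30 with the block, 1 with median centring, 10 with external controls, 26 on the authors' values with the block, and 30 with the block without the dim array. For Mot1-FRB minus WT, 2 became 8 with the block, 0 with median centring, 6 on the authors' values, 7 on those with the block, 1 over probes above the blanks on all 12 arrays, and 6 with the block without the dim array. For NCB2-FRB minus WT, 5 became 15, 0, 9, 13, 3 and 16 under the same 6 settings. For Mot1-FRB minus NCB2-FRB, 0 became 8 with the block, 1 with print-tip loess, 4 on the authors' values, 6 on those with the block, and 8 with the block without the dim array. For untreated Mot1-FRB against WT, 0 became 4 with the block, 1 on the authors' values, 4 on those with the block, and 4 with the block without the dim array. Leaving out 1 array gave 4 to 15 calls in Mot1-FRB, 4 to 22 in NCB2-FRB, 2 to 2 for Mot1-FRB minus WT, 2 to 7 for NCB2-FRB minus WT, and 0 to 0 in the other 4 comparisons. WT with rapamycin and untreated NCB2-FRB kept a count of 0 in every setting. Of 29 called values of named members none reversed under any setting: 26 were lost under median centring, 12 under external controls, 3 under print-tip loess and 1 on the authors' values, and none with the block or without background subtraction. The settings with the block on the authors' values or without the dim array, the filter on all 12 arrays and the outermost 5 genes were chosen after seeing the data. The cause was not tested. Slide and scan date could not be used as a block, since neither was available here. The number of arrays, 2 per group, limits precision, and the dim array limits the WT values.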
